A study of Mus musculus with 8 samples.

Results

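Serum response factor (SRF) and 9 genes of the smooth-muscle contractile and adhesion programme that it is known to control were followed in mouse embryonic fibroblasts (MEFs) exposed to RHPS4, a ligand of G-quadruplex DNA. The 10 genes were taken by name (Srf, Acta2, Tagln, Cnn1, Cnn2, Myl9, Tpm1, Tpm2, Vcl and Actg2) from a table of 24460 genes, and all 10 were among the 14296 with enough counts to be tested. They and the gene lists below were chosen with earlier results of these data known. Their counts beside the shares over all genes are therefore descriptions and not support from an independent list. All cells were wild-type MEFs. RHPS4 was given at 2 µM to 3 libraries and at 10 µM to 2, and another 3 at 0 µM were the untreated control. The labels do not say whether the MEFs were a primary culture or a line, whether the libraries of a dose came from separate cultures, or which of the study's exposure times was used for RNA-Seq. The p-values below therefore measure the spread between these libraries, which may be technical.

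SRF is a transcription factor that binds the CArG box, a stretch of A and T bases between CC and GG. Its activity is set by partner proteins. Myocardin-related factors, which are held back by unpolymerized actin, direct it to cytoskeletal and contractile genes, while ternary complex factors, which respond to growth factor signalling, direct it to immediate early genes such as Fos. In smooth muscle its targets build the contractile apparatus, and in fibroblasts a raised level of smooth-muscle actin and its partners is the usual mark of the contractile, myofibroblast-like state.

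A CArG box lay in the promoter windows of several of these genes. The windows run from 250 bases before to 50 bases after the RefSeq start (GRCm38.p6) and were matched for 8 of the 10 genes (not Tagln and Actg2). An exact CArG box was found in 4 of the 8 (Srf, Cnn2, Myl9 and Vcl), against 535 of all 32851 windows (1.63%). With at most 1 base of the A and T core departing, Acta2 joined them (5 of 8, against 9.98% of all windows). The sequences of those 5 genes are shown because they carry the box, in capitals, whether exact or with 1 departure, 5′ to 3′ on the strand of the gene. Those of Srf, Cnn2, Myl9 and Vcl run from 250 bases before the start to the last base ahead of an annotated exon, and for Acta2, where an exon of another transcript covers the region, each box is shown with 10 bases on either side.

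Srf (chr17:46556176-46556412, minus strand): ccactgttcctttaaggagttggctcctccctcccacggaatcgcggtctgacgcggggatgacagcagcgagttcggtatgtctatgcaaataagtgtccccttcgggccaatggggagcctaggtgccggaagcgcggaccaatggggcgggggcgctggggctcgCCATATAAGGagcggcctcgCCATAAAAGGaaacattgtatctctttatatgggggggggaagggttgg
Cnn2 (chr10:79988350-79988583, plus strand): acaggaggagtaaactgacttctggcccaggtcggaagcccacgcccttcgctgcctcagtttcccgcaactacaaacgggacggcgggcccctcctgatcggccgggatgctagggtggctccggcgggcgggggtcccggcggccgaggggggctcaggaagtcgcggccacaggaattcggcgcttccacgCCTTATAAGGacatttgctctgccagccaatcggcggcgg
Myl9 (chr2:156775214-156775419, plus strand): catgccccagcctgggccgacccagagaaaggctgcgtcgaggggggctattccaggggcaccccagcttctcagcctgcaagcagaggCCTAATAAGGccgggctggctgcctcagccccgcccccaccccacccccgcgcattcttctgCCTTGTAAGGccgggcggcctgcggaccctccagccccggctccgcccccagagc
Vcl (chr14:20929148-20929397, plus strand): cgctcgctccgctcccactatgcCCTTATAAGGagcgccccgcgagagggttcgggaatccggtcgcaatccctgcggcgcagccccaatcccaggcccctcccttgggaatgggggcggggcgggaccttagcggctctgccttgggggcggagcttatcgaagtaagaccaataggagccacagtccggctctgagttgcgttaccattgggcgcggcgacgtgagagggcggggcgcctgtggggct
Acta2 (chr19:34255438-34255467, minus strand): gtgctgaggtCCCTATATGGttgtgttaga
Acta2 (chr19:34255388-34255417, minus strand): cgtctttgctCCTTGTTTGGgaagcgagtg

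The Srf promoter held 2 exact boxes, which began 82 and 62 bases before the start. The box of Cnn2 began 56 bases before it, that of Myl9 161 bases before it, with a second box of 1 departure at 99 bases, and that of Vcl 227 bases before it. The boxes of Acta2 began 84 and 34 bases before the start. No CArG box was matched in the windows of Cnn1, Tpm1 and Tpm2, which says only that these letters were not in those windows. Of the other motifs searched on both strands, TATAAA was in the window of Srf (13.6% of all windows), CATTCC in those of Acta2, Tpm1 and Vcl (14.7%), and a G-quadruplex run (4 runs of at least 3 G with loops of 1 to 7 bases) in those of Cnn1, Myl9, Srf and Vcl (18.6%). The run of Srf lay 31 to 11 bases before the start and its TATAAA, on the other strand, 38 bases before it. In Vcl the CATTCC at 143 bases lay inside the G-quadruplex run that began 144 bases before the start. The member windows held 54.7% to 70.7% G and C, against a median of 52.7% over all windows. A match is a description of the letters and not evidence of binding.

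The deposited fragment counts totalled 10455965 to 26688121 per library, so that 3 counts stood for 0.119 to 0.311 CPM, which are counts scaled to library size with TMM factors. Such floors cover counting error only. Replicate 1 at 0 µM was the smallest library and stood apart from its group. Its counts differed from those of replicates 2 and 3 by a chi-square of 18.4 and 24.05 per degree of freedom, against 3.625 between replicates 2 and 3. Pairs within the other doses had 4.454 to 12.61 at 2 µM and 10.14 at 10 µM, so 3.625 was the lowest. Values without replicate 1 at 0 µM are given beside the results below. All 12 fibroblast markers were detected, with a summed level of 14287 to 14751 CPM at 0 µM, 13020 to 13230 CPM at 2 µM and 12740 to 13046 CPM at 10 µM. Among them Lum had only 6 to 28 counts per library and averaged at most 0.996 CPM at any dose. All 6 smooth-muscle markers were detected at a summed 51.3 to 76.0 CPM, of which Smtn alone held 41.6 to 66.1 CPM. Myocd, the gene of the smooth-muscle partner myocardin, had 2 to 10 counts per library. Myh11, Lmod1 and Des, which are also in the smooth-muscle list, averaged at most 1.97 CPM at any dose. The summed levels over the 8 libraries were 69.4 to 84.8 CPM for 5 pericyte markers, 3.01 to 5.40 CPM for 8 of skeletal muscle, 3.27 to 5.30 CPM for 6 of cardiac muscle, 2.58 to 4.14 CPM for 5 of epithelium, 3.26 to 5.47 CPM for 4 of endothelium and 6.23 to 10.4 CPM for 5 of immune cells. Cspg4 alone held 61.1 to 74.3 CPM of the pericyte sum, while Rgs5 and Kcnj8 had at most 6 and 10 counts in a library. The share of counts from mtDNA features was 13.2% to 14.4% at 0 µM, 7.40% to 8.26% at 2 µM and 5.33% to 6.32% at 10 µM.

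At 0 µM the members spanned a wide range of levels per length. Tpm1, a tropomyosin that lies along the actin filament, was the highest at 127 ± 18.8 CPM per kilobase of exon (SD, n = 3). It was followed by Cnn2, the calponin of non-muscle cells, at 93.0 ± 3.21 and by Acta2, smooth-muscle α-actin, at 70.2 ± 4.30 CPM per kilobase. Below them came Tpm2 (60.7 ± 8.10), Vcl (46.9 ± 3.23), Tagln (36.9 ± 4.93), Myl9 (25.4 ± 4.21) and Srf itself (16.1 ± 1.98 CPM per kilobase). Cnn1, the calponin of differentiated smooth muscle, was at 1.97 ± 0.179 and Actg2, the enteric smooth-muscle actin, at 0.233 ± 0.0478 CPM per kilobase. Of the neighbours in this order, Acta2 and Tpm2 overlapped between libraries and all others did not. With the longest transcript in place of the exon union, Tpm1 was at 285, Tpm2 at 81.2 and Vcl at 72.9 CPM per kilobase, so the order of Acta2 (75.8), Tpm2 and Vcl depends on the length used. At 2 µM Acta2 moved up to 104 ± 5.04 CPM per kilobase, where its libraries overlapped those of Cnn2 (108 ± 6.40), and Tagln stood above Vcl at both 2 µM (59.8 ± 2.26) and 10 µM (41.2 ± 5.30 CPM per kilobase). Per kilobase of the longest transcript, Tagln was at 74.5 and Vcl at 71.6 CPM at 2 µM, and Tagln at 51.3 and Vcl at 55.3 CPM at 10 µM, so that order too depends on the length. Actg2 had 4 to 12 counts per library, so its values rest on few reads.

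**Figure D1:**
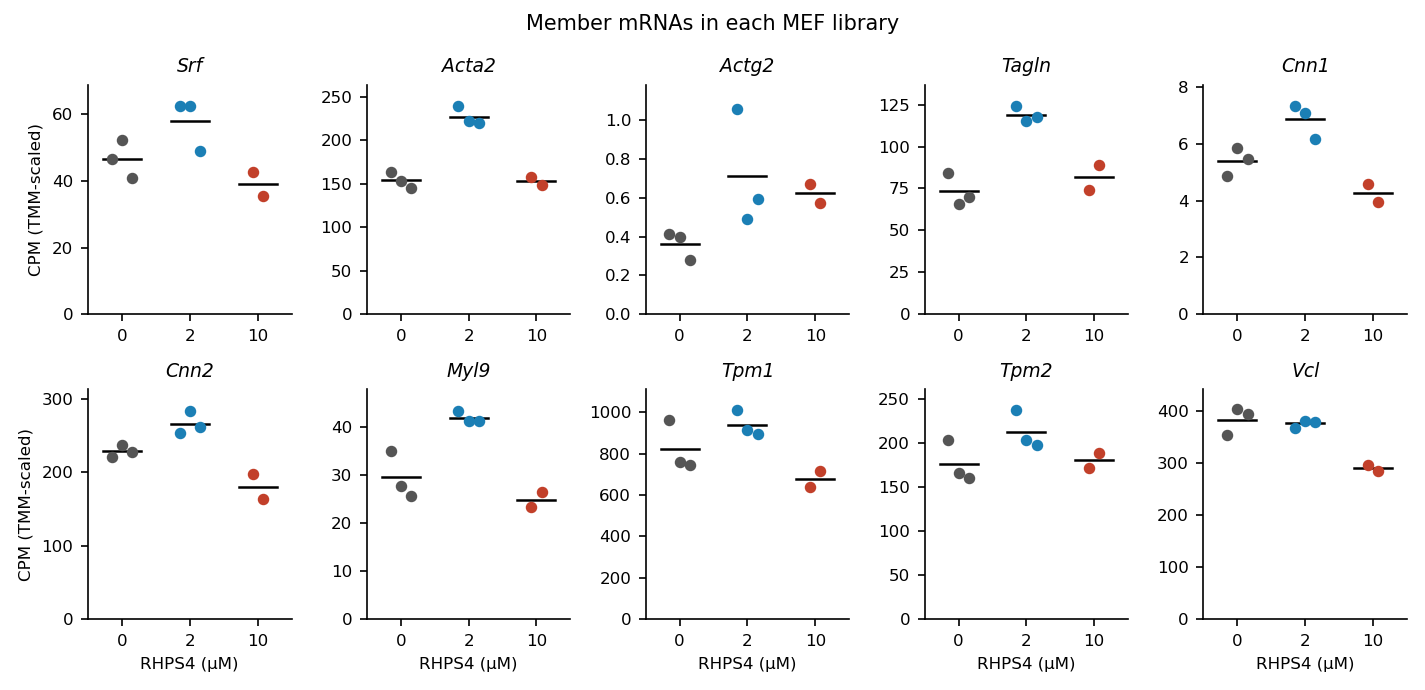
CPM (linear axis from 0) of the 10 genes in each of the 8 libraries, by RHPS4 dose; each dot is a library and each line a group mean. Acta2, Tagln, Myl9, Cnn1 and Cnn2 are highest in the 2 µM libraries, with no overlap with either other dose. Vcl, Cnn1, Cnn2 and Tpm1 are lower in both 10 µM libraries than in any other.

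The first comparison asked which members differed between 2 µM and no RHPS4. Acta2, Tagln and Myl9, an actin, an actin-binding protein and a myosin light chain of the smooth-muscle apparatus, rose by 1.44-fold to 1.63-fold, and no member fell. Acta2 (chr19:34241090-34255590, GRCm38) was at 164, 154 and 145 CPM in the 3 libraries at 0 µM and at 240, 223 and 220 CPM in the 3 at 2 µM. Every 2 µM library lay above every 0 µM library. The log2 fold change was 0.56 ± 0.0724 (SE), with an adjusted p of 0.00247 by edgeR's quasi-likelihood test with Benjamini-Hochberg adjustment. In RNA from whole cultures, a different number of cells with a transcript and a different amount of it per cell cannot be told apart.

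Tagln (chr9:45929619-45936058; transgelin, or SM22α, which binds actin filaments) gave 84.4, 65.8 and 69.8 CPM at 0 µM and 124, 115 and 118 CPM at 2 µM. The groups were apart, with 0 µM replicate 1 the nearest to the treated libraries. The log2 fold change was 0.70 ± 0.101 (SE, adjusted p = 0.00451, edgeR). Tagln was the 1 member that passed the study's threshold for a differentially expressed gene (DEG), an adjusted p under 0.01 with a fold change over 1.5. Acta2 missed it on size, at 1.48-fold. Of all tested genes, 17 (0.119%) were DEGs that rose and 54 (0.378%) DEGs that fell at 2 µM.

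Tagln's call was close to the limit. It was lost (adjusted p from 0.0164 to 0.0328) when 0 µM replicate 2 or 3 or any 1 of the 2 µM libraries was left out, with log2 fold changes from 0.64 to 0.73, and when replicate numbers entered as a block (0.71, adjusted p = 0.0134). Without 0 µM replicate 1, Tagln gave 0.82 (adjusted p = 0.000782) and Acta2 (0.61, adjusted p = 0.00113) and Myl9 (0.66, adjusted p = 0.00222) became DEGs as well. The DEGs over all tested genes moved with the same fits. In the main fit 17 rose and 54 fell at 2 µM. Without 0 µM replicate 2 or 3 these were 3 and 16, and 3 and 12. Without 2 µM replicate 1, 2 or 3 they were 7 and 17, 2 and 4, and 6 and 23. They were 28 and 116 without 0 µM replicate 1, and 11 and 43 with the block.

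Annotated exons of Pcsk7 and Gm48529 on the opposite strand overlap 67.86% of the exon bases of Tagln. The study made stranded libraries, but the sources used here do not say whether fragments were counted by strand. Pcsk7, which encodes a proprotein convertase, was at 40.1, 42.7 and 38.3 CPM at 0 µM and at 43.5, 43.8 and 42.3 CPM at 2 µM (log2 fold change 0.10 ± 0.0731, adjusted p = 0.475, edgeR). Its groups overlapped. Whether its counts include the shared exons is not known, so they cannot show the part of the overlap in Tagln's value, which was not tested. No value is given here for Gm48529.

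Myl9 (chr2:156775420-156781658), the regulatory light chain of smooth-muscle myosin, gave 35.1, 27.9 and 25.8 CPM at 0 µM and 43.4, 41.2 and 41.4 CPM at 2 µM. The groups did not overlap, and replicate 1 was again the highest of the 0 µM libraries. The log2 fold change was 0.52 ± 0.110 (SE) with an adjusted p of 0.0282 (edgeR), which passes a looser rule of an adjusted p under 0.05 with no minimum fold. This call too depended on single libraries. When 0 µM replicate 2 or 3 or any 1 of the 2 µM libraries was dropped, Myl9 had 0.43 to 0.54 with an adjusted p of 0.0600 to 0.149. By the looser rule 3 of the 10 members rose and 0 fell, against 1.51% of all tested genes that rose and 2.65% that fell. The 3 became 2 (Acta2 and Tagln) in each of those 5 fits, and 5 without 0 µM replicate 1 (with Tpm1 and Tpm2) or with total-count scaling (with Cnn2 and Tpm2).

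The other 7 members did not pass either rule at 2 µM. Srf (chr17:46548329-46556175) was at 46.7, 52.3 and 40.9 CPM at 0 µM and at 62.5, 62.4 and 48.9 CPM at 2 µM, with a log2 fold change of 0.31 ± 0.122 (adjusted p = 0.174). The lowest of its 2 µM libraries lay within the 0 µM range. Cnn1 (0.32, adjusted p = 0.199), Tpm2 (0.27, adjusted p = 0.158), Cnn2 (0.22, adjusted p = 0.159) and Tpm1 (0.19, adjusted p = 0.311) had positive log2 fold changes of similar size. Actg2, at 0.415, 0.396 and 0.278 CPM without and 1.06, 0.489 and 0.594 CPM with 2 µM RHPS4, gave 0.99 ± 0.405 (adjusted p = 0.192). Vinculin (Vcl), which links integrin adhesions and cell junctions to actin, gave −0.03 ± 0.0704 (95% interval −0.18 to 0.13, adjusted p = 0.856).

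In all, 9 of the 10 members had a positive log2 fold change at 2 µM and the median was 0.31, beside −0.01 over all tested genes. In 6 members (Acta2, Tagln, Cnn1, Cnn2, Myl9 and Actg2) every 2 µM library lay above every 0 µM library, as 12.7% of all tested genes did, and in 0 members every 2 µM library lay below, against 12.9%. The members come from the same libraries, so these counts are not independent observations.

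**Figure D2:**
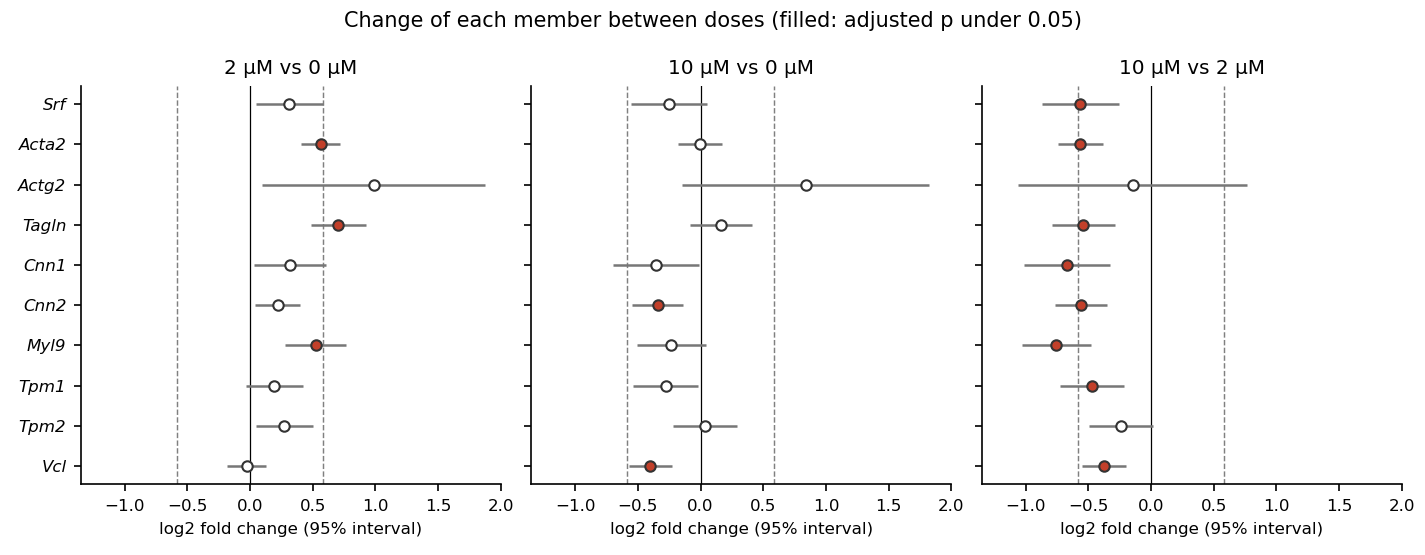
Log2 fold change of each member with its 95% interval (edgeR) in the 3 comparisons; filled points have an adjusted p under 0.05 and dashed lines mark a 1.5-fold change. Acta2, Tagln and Myl9 are filled at 2 µM vs 0 µM, Cnn2 and Vcl at 10 µM vs 0 µM, and 8 members, all below 0, at 10 µM vs 2 µM.

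The second comparison set 10 µM against the same 0 µM libraries. Here the smooth-muscle actin and transgelin were near their untreated level, and the members that moved were Vcl and Cnn2, which fell by a modest amount. Vcl (chr14:20929398-21033676) was at 354, 404 and 394 CPM at 0 µM and at 297 and 286 CPM at 10 µM. Both 10 µM libraries lay below every 0 µM library, and below every 2 µM library too (369, 381 and 380 CPM). The log2 fold change was −0.40 ± 0.0796 (SE, adjusted p = 0.00755, edgeR), a 0.758-fold level, so that it passed the DEG threshold on p but not on size.

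Exons of Ap3m1, a subunit gene of an endosomal adaptor complex, overlap 25.52% of the exon bases of Vcl on the opposite strand. Ap3m1 was at 88.4, 78.9 and 80.1 CPM at 0 µM and at 75.2 and 80.9 CPM at 10 µM, which overlapped (log2 fold change −0.08 ± 0.0851, adjusted p = 0.585). The part of the overlap in Vcl's value was not tested.

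Cnn2 (chr10:79988584-79996062) was at 222, 237 and 228 CPM at 0 µM and at 198 and 164 CPM at 10 µM. The groups did not overlap, and the 10 µM libraries differed from each other by more than the 0 µM libraries did. The log2 fold change was −0.34 ± 0.0934 (adjusted p = 0.0332, edgeR). Cnn2 passed no rule without 0 µM replicate 2 (adjusted p = 0.0825), 0 µM replicate 3 (0.0829) or 2 µM replicate 2 (0.0527), with only both groups compared (0.0770) or with the replicate block (0.0619). By the looser rule 2 of 10 members fell and 0 rose, against 7.11% of all tested genes that fell and 6.81% that rose. No member was a DEG, against 1.95% of all tested genes that were DEGs and higher and 1.14% that were DEGs and lower. At an unadjusted p under 0.05 edgeR counted 4 members (Cnn1, Cnn2, Tpm1 and Vcl), against 29.4% of its 14296 tested genes. DESeq2 gave 0 DEGs and 3 members at that level, against 14.3% of 23612 genes. The DESeq2 fit did not drop genes with few counts, so the 2 shares cannot be set against each other.

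Acta2 was at 158 and 149 CPM at 10 µM, inside the 0 µM range, with a log2 fold change of −0.0029 ± 0.0809 (95% interval −0.18 to 0.17, adjusted p = 0.985). Tagln was at 74.4 and 89.3 CPM, so that the groups overlapped, with 0.16 ± 0.113 (adjusted p = 0.365). Tpm2, the β-tropomyosin, gave 0.04 ± 0.116 (adjusted p = 0.870).

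The remaining members had values below 0 that passed neither rule, with log2 fold changes of −0.35 for Cnn1 (adjusted p = 0.160), −0.28 for Tpm1 (0.143), −0.25 for Srf (0.247) and −0.23 for Myl9 (0.246). Actg2 gave 0.84 ± 0.449 (adjusted p = 0.239) and was the 1 member with every 10 µM library above every 0 µM library, as 22.9% of tested genes were. In 4 members (Cnn1, Cnn2, Tpm1 and Vcl) both 10 µM libraries lay below, against 20.0% of tested genes. The median over the members was −0.24, beside 0.02 over all tested genes.

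These calls depend on the scaling. When libraries were scaled to their total counts, which include the mtDNA features, the median of all genes at 10 µM vs 0 µM moved to 0.23, and Vcl (−0.19, adjusted p = 0.114) and Cnn2 (−0.13, adjusted p = 0.335) passed no rule. Tagln then had 0.38 (adjusted p = 0.0216). Relative to the median of all genes, the values under that scaling were −0.42 for Vcl, −0.36 for Cnn2 and 0.15 for Tagln, and the median of the members was −0.26 with either scaling. Without 10 µM replicate 2, 0 members passed the looser rule, and Vcl had −0.40 (adjusted p = 0.0616). Without 0 µM replicate 1, Vcl gave −0.48 (adjusted p = 0.000891) and Cnn2 −0.39 (adjusted p = 0.0148).

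The direct comparison of the doses, 10 µM against 2 µM, shares its libraries with both comparisons above and is not independent of them. It held the widest change of the members. By the looser rule 8 of the 10 were lower at 10 µM than at 2 µM and 0 were higher, against 11.9% and 11.5% of all tested genes. Myl9, at 23.3 and 26.5 CPM at 10 µM, was the 1 DEG, with a log2 fold change of −0.76 ± 0.126 (adjusted p = 0.00187, edgeR). Of all tested genes, 1.59% were DEGs that were lower and 3.92% DEGs that were higher. Without 10 µM replicate 1, Myl9 had −0.70 (adjusted p = 0.0167) and was no longer a DEG.

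Cnn1 (−0.67, adjusted p = 0.0110), Acta2 (−0.56, adjusted p = 0.000843), Srf (−0.56, adjusted p = 0.0140), Cnn2 (−0.56, adjusted p = 0.00190) and Tagln (−0.54, adjusted p = 0.00650) fell by similar amounts. Tpm1 (−0.47, adjusted p = 0.0152) and Vcl (−0.37, adjusted p = 0.00703) fell by less. Srf, which had passed no rule against 0 µM at either dose, was at 62.5, 62.4 and 48.9 CPM at 2 µM and at 42.6 and 35.4 CPM at 10 µM, with no overlap. Cnn1 was at 7.32, 7.09 and 6.18 CPM at 2 µM and at 4.58 and 3.96 CPM at 10 µM, again apart. Tpm2 (−0.24, adjusted p = 0.163) and Actg2 (−0.15, adjusted p = 0.844) did not pass.

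In 9 of the 10 members both 10 µM libraries lay below every 2 µM library, against 24.9% of tested genes, and in 0 both lay above, against 27.0%. The exception was Actg2. The median of the members was −0.55, beside 0.03 over all tested genes. The number of DEGs varied between 1 and 5 with the setting. It was 5 without 0 µM replicate 1, 4 without 2 µM replicate 3, and 2 when 0 µM replicate 2, 2 µM replicate 1 or 10 µM replicate 1 was left out, where Myl9 was not among the 2 of the last. With 6 to 9 members past the looser rule when any 1 library was left out, all of them lower, the direction was the same in each of these fits.

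Markers of dividing cells moved with the same comparison. Of 8 such genes, 7 fell from 2 µM to 10 µM by the looser rule, against 11.9% of all tested genes (Cdk1 by 0.46 on the log2 scale, adjusted p = 0.00627). The summed level of the 8 was 3437 to 3699 CPM at 0 µM, 3605 to 3804 CPM at 2 µM and 2949 to 2984 CPM at 10 µM. None of the 8 was at 0. Top2a was the exception, with −0.10 (adjusted p = 0.447). Between 2 µM and 0 µM, 0 of the 8 passed the looser rule (4 without 0 µM replicate 1, all higher). At 10 µM vs 0 µM 4 fell and 0 rose by that rule, with a median log2 fold change of −0.28. Over all tested genes 7.11% fell. Without 0 µM replicate 1, 5 of the 8 fell, and with total-count scaling 2. Of the 12 fibroblast markers, 4 (Col3a1, Dcn, Pdgfrb and Postn) fell at 2 µM by the looser rule and 0 rose. The median log2 fold change of the 12 was −0.30, and 2.65% of all tested genes fell by that rule. At 10 µM vs 0 µM 2 fell (median −0.20), and from 2 µM to 10 µM 2 rose and 1 fell (median 0.08). The part of either list in the members' values was not tested.

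**Figure D3:**
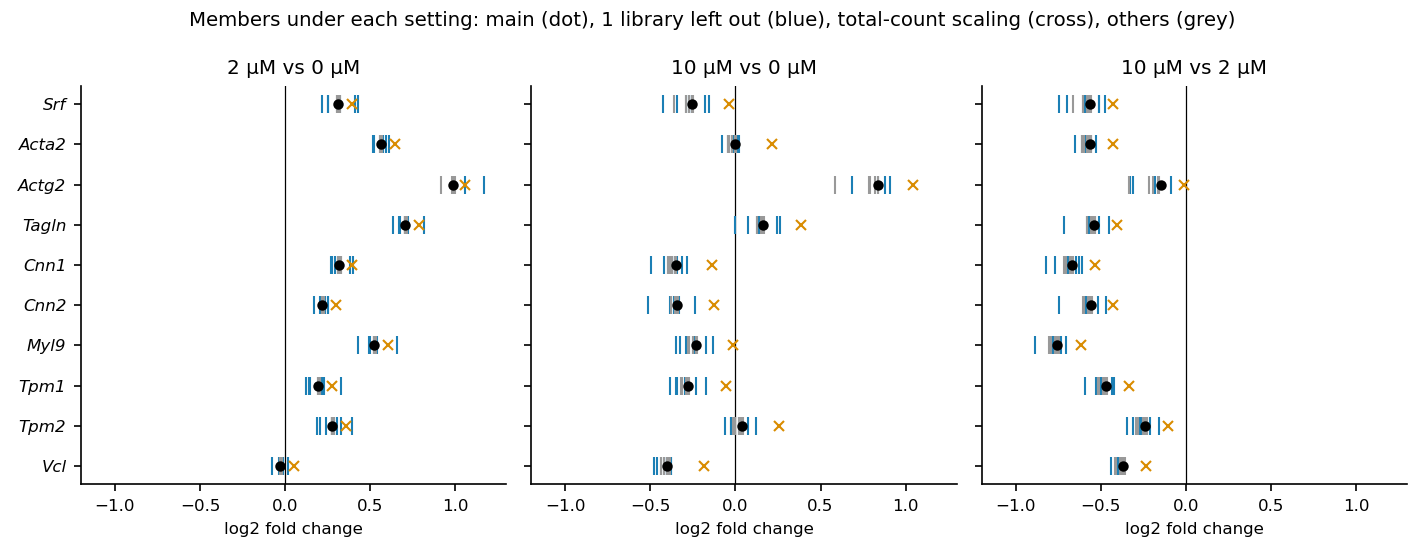
Log2 fold change of each member under the main fit (black dot), with 1 library left out (blue ticks), with total-count scaling (orange crosses) and under the other settings (grey ticks), for the 3 comparisons. The crosses lie to the right of the dots in every panel.

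Ratios of related mRNAs within a library do not depend on how libraries are scaled. For each of 4 pairs the log2 ratio of the counts was compared over libraries with a two-sided exact permutation test, in 8 comparisons. The smallest p such a test can give is 0.1 with 3 against 3 libraries and 0.2 with 3 against 2, so none could pass 0.05, and the smallest Benjamini-Hochberg value over the 8 was 0.267. Acta2 over Actb, the cytoplasmic β-actin, was −5.34, −5.26 and −5.34 at 0 µM, −4.85, −4.87 and −4.92 at 2 µM, and at 10 µM it was −4.91 and −5.08. Both treated groups lay above every 0 µM library. The difference was 0.43 at 2 µM (pooled SD 0.0421, exact p = 0.1) and 0.32 at 10 µM (pooled SD 0.0773, exact p = 0.2). At 10 µM the ratio thus stood above its untreated level although the CPM of Acta2 did not, since Actb had a log2 fold change of −0.32 (adjusted p = 0.0555).

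Tagln over Tagln2, the transgelin of non-muscle cells, was −1.79, −1.98 and −1.89 at 0 µM, −1.30, −1.39 and −1.32 at 2 µM, and at 10 µM it was −1.76 and −1.67. The 2 µM libraries were clear of the rest, by 0.55 on average (pooled SD 0.0772, exact p = 0.1), while those at 10 µM lay just above the highest 0 µM library (difference 0.17, exact p = 0.2). Tpm2 over Tpm1 was −2.24, −2.20 and −2.22 at 0 µM, −2.09, −2.16 and −2.18 at 2 µM, and at 10 µM it was −1.90 and −1.92. It was higher at each dose in turn, by 0.07 (pooled SD 0.0393, exact p = 0.1) and 0.31 (pooled SD 0.0202, exact p = 0.2). The ratio of the tropomyosins is the clearest of the 4 at 10 µM against its replicate spread, in 5 libraries.

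Cnn1 over Cnn2 was −5.49, −5.34 and −5.37 at 0 µM, −5.11, −5.32 and −5.40 at 2 µM, and at 10 µM it was −5.42 and −5.36. The groups overlapped at both doses, with differences of 0.13 (pooled SD 0.121, exact p = 0.4) and 0.01 (pooled SD 0.0708, exact p = 1.0). The Acta2, Tagln and Tpm2 pairs therefore kept both treated groups apart from 0 µM and the calponin pair did not, in a design that cannot test either. For Acta2 over Actb the 2 µM and 10 µM libraries overlapped.

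**Figure D4:**
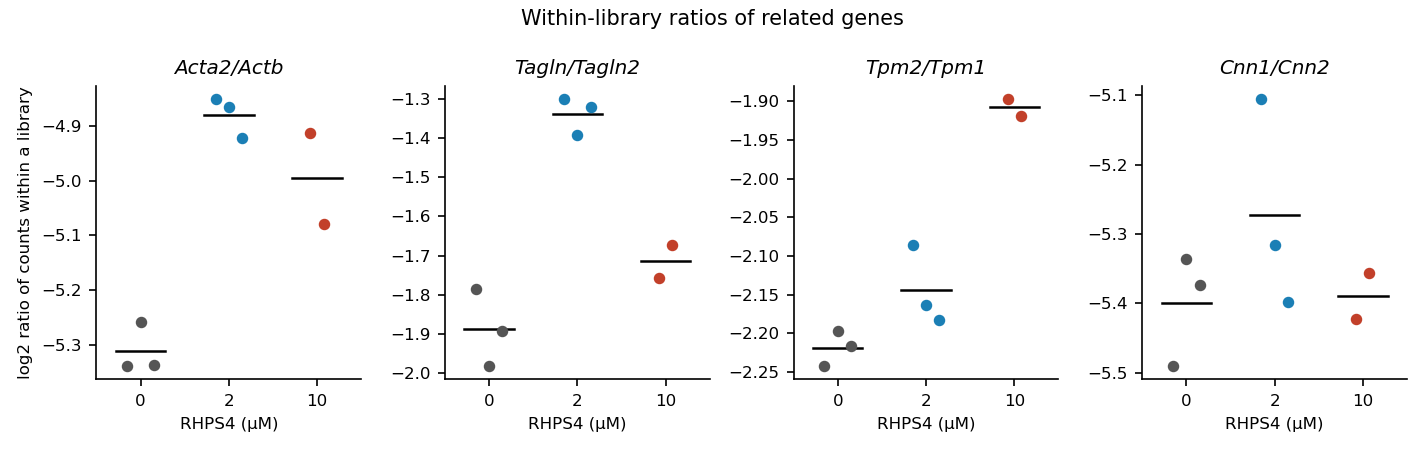
Log2 ratio of counts within each library for 4 pairs of related genes, by RHPS4 dose (dots are libraries, lines are group means; the axes do not start at 0). Tpm2/Tpm1 is highest in the 10 µM libraries, Acta2/Actb and Tagln/Tagln2 have their highest mean at 2 µM, and Cnn1/Cnn2 overlaps between doses.

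The members' relatives were examined next, family by family. In the actin family, Actb was at 2287 ± 164 CPM per kilobase at 0 µM and Actg1, the cytoplasmic γ-actin, at 261 ± 32.2, so that Acta2 was a minor actin of these cells. At 2 µM Acta2 was the 1 of 5 tested actins to pass the looser rule. Actb gave 0.13 (adjusted p = 0.433), Actg1 0.09 (adjusted p = 0.736) and Acta1, the skeletal actin with 3 to 16 counts, 0.89 (adjusted p = 0.183), and Actc1, the cardiac actin with 2 to 8 counts, was not tested. At 10 µM vs 2 µM Actb fell with Acta2, by 0.45 on the log2 scale (adjusted p = 0.00879). Of the stretches of 75 bases in Actg1 exons, 33.45% also occur in other genes, so its value is uncertain.

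Among the tropomyosins, Tpm4 was the highest per length (491 ± 60.7 CPM per kilobase at 0 µM) and Tpm3 stood at 59.0 ± 7.84, near Tpm2. The exon union of Tpm3 is 6085 bases and its longest transcript 2374, against 2909 and 2175 for Tpm2. The place of Tpm3 beside Tpm2 thus depends on the length used. Stretches of 75 bases that also occur in other genes made up 12.12% of Tpm4 and 19.15% of Tpm3. None of the 4 tropomyosins passed the looser rule against 0 µM at either dose. Without 0 µM replicate 1, which had the highest 0 µM level of Tpm1 and Tpm2, all 4 rose at 2 µM by that rule (Tpm2 0.39, adjusted p = 0.0162, and Tpm1 0.33, adjusted p = 0.0223). From 2 µM to 10 µM Tpm3 fell by 0.45 (adjusted p = 0.0144) and Tpm4 gave −0.21 (adjusted p = 0.177).

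Of the calponins and transgelins, Cnn3, the acidic calponin, was the most abundant calponin at 189 ± 5.14 CPM per kilobase at 0 µM. It fell at 10 µM by 0.43 on the log2 scale (adjusted p = 0.00369), as Cnn2 did, and gave −0.11 at 2 µM (adjusted p = 0.377). Tagln2, at 129.6 ± 8.75 CPM per kilobase, gave 0.16 at 2 µM (adjusted p = 0.257) and −0.01 at 10 µM (adjusted p = 0.954), and Tagln3, the neuronal form with 1 to 8 counts, was not tested. The non-muscle relatives of Myl9, Myl12a (0.12 at 2 µM, adjusted p = 0.405) and Myl12b (−0.06, adjusted p = 0.800), passed no rule in any of the 3 comparisons. Stretches of 75 bases that also occur in other genes made up 18.53% of Myl12a, 15.9% of Myl12b and 16.08% of Cnn3. Myl2 and Myl7, the light chains of heart muscle, had at most 6 and 5 counts in a library and were not tested.

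Of 8 genes for vinculin and its partners at adhesions and junctions, 0 passed the looser rule at 2 µM and 5 fell at 10 µM. Besides Vcl these were Sorbs3 (vinexin, −0.55, adjusted p = 0.0319), Pxn (paxillin, −0.44, adjusted p = 0.0367), Zyx (zyxin, −0.43, adjusted p = 0.0239) and Ctnna1 (α-catenin, −0.24, adjusted p = 0.0465). The talins Tln1 (−0.22, adjusted p = 0.124) and Tln2 (0.01, adjusted p = 0.961) and Vasp (−0.10, adjusted p = 0.555) did not pass. Over all tested genes 7.11% fell at 10 µM by the looser rule. The median of the 8 was −0.32 at 10 µM. With total-count scaling it was −0.11 and 0 of the 8 passed, but relative to the median of all genes it was −0.34 with either scaling. With 0 µM replicate 1 left out, 2 of the 8 (Sorbs3 and Zyx) fell at 2 µM and 6 at 10 µM.

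The wider SRF pathway was taken from lists of its partners and its other targets. Of 12 cofactors and repressors of SRF, 0 passed the looser rule at 2 µM, with a median log2 fold change of −0.18. Mkl1 and Mkl2, the myocardin-related factors, were at −0.14 (adjusted p = 0.573) and −0.26 (adjusted p = 0.357). At 10 µM Elk3, a ternary complex factor that represses SRF targets, fell by 0.56 (adjusted p = 0.00153) and Csrp2, a LIM-domain partner of SRF, by 0.31 (adjusted p = 0.0381). Scai, a known suppressor of myocardin-related factors, rose by 0.34 (adjusted p = 0.0232). With total-count scaling Elk3 and Scai still passed, Csrp2 did not, and the median moved from −0.09 to 0.13, or −0.11 with either scaling relative to all genes. In the fit lacking 0 µM replicate 1, 1 of the 11 then tested rose and 1 fell at 2 µM, and 1 rose and 4 fell at 10 µM.

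Other genes of the smooth-muscle contractile programme did not move with Acta2 and Tagln at 2 µM. Of 15 in the list, 13 were tested, 0 rose and 1 fell by the looser rule, against 1.51% and 2.65% of all tested genes. That 1 was Mylk, the kinase that phosphorylates the myosin light chain, with −0.42 ± 0.0954 (adjusted p = 0.0374). Smtn, or smoothelin, gave −0.13 (adjusted p = 0.465), Synpo2 −0.43 (adjusted p = 0.221) and Pdlim7 0.04 (adjusted p = 0.796), and the median was −0.05. At 10 µM Smtn (−0.44, adjusted p = 0.0200) and Pdlim7 (−0.35, adjusted p = 0.0279) fell, and Itga8, the integrin α8 subunit and the third gene past the looser rule, rose by 0.31 (adjusted p = 0.0416). With total-count scaling 0 fell and 4 rose at 10 µM, while the list's median relative to all genes was −0.08 with either scaling. Leaving out 0 µM replicate 1, 2 fell at 2 µM (Mylk and Synpo2), and 4 fell and 1 rose at 10 µM.

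Of 16 other cytoskeletal targets of SRF, 0 passed at 2 µM and 6 fell at 10 µM by the looser rule, among them Zyx, Coro1c (−0.35, adjusted p = 0.0237) and Fermt2, or kindlin-2 (−0.37, adjusted p = 0.0232). Lima1 gave −0.20 (adjusted p = 0.111). Over all tested genes 7.11% fell at 10 µM by the looser rule. Zyx and Tln1 are in the list of vinculin partners too, so the counts of these lists are not separate. The median at 10 µM was −0.31, and with total-count scaling it was −0.09, with 0 genes lower and 2 higher. Relative to the median of all genes it was −0.33 and −0.32. Without 0 µM replicate 1, 9 fell.

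Of 9 immediate early targets of SRF, 3 (Fos, Fosb and Nr4a1) were DEGs and all 3 fell, at 2 µM and again at 10 µM. Over all tested genes 0.378% were DEGs that fell at 2 µM and 1.14% at 10 µM. Fos, a subunit of the AP-1 transcription factor, was at 8.10, 9.07 and 8.30 CPM at 0 µM, 2.12, 2.12 and 3.63 CPM at 2 µM, and at 10 µM it was 4.40 and 3.02 CPM. Every treated library lay below every untreated one. The log2 fold change was −1.65 ± 0.204 at 2 µM (adjusted p = 0.00218) and −1.18 ± 0.216 at 10 µM (adjusted p = 0.00489, edgeR).

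Fosb, its close relative, gave −1.45 ± 0.202 at 2 µM (adjusted p = 0.00363) and −1.21 ± 0.219 at 10 µM (adjusted p = 0.00482). Nr4a1, an orphan nuclear receptor induced by growth factors, gave −1.01 ± 0.112 (adjusted p = 0.00141) and −0.81 ± 0.123 (adjusted p = 0.00176). The other 6 (Egr1, Egr2, Egr3, Ier2, Junb and Arc) had log2 fold changes from −0.18 to 0.04 at 2 µM and passed no rule there, and the list's median was −0.11. Egr3 passed the looser rule at 10 µM (−0.69, adjusted p = 0.0244). With total-count scaling the same 3 were DEGs at both doses. Without 0 µM replicate 1 the list had 3 DEGs at 2 µM and 4 at 10 µM. The comparisons share their 0 µM libraries.

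**Figure D5:**
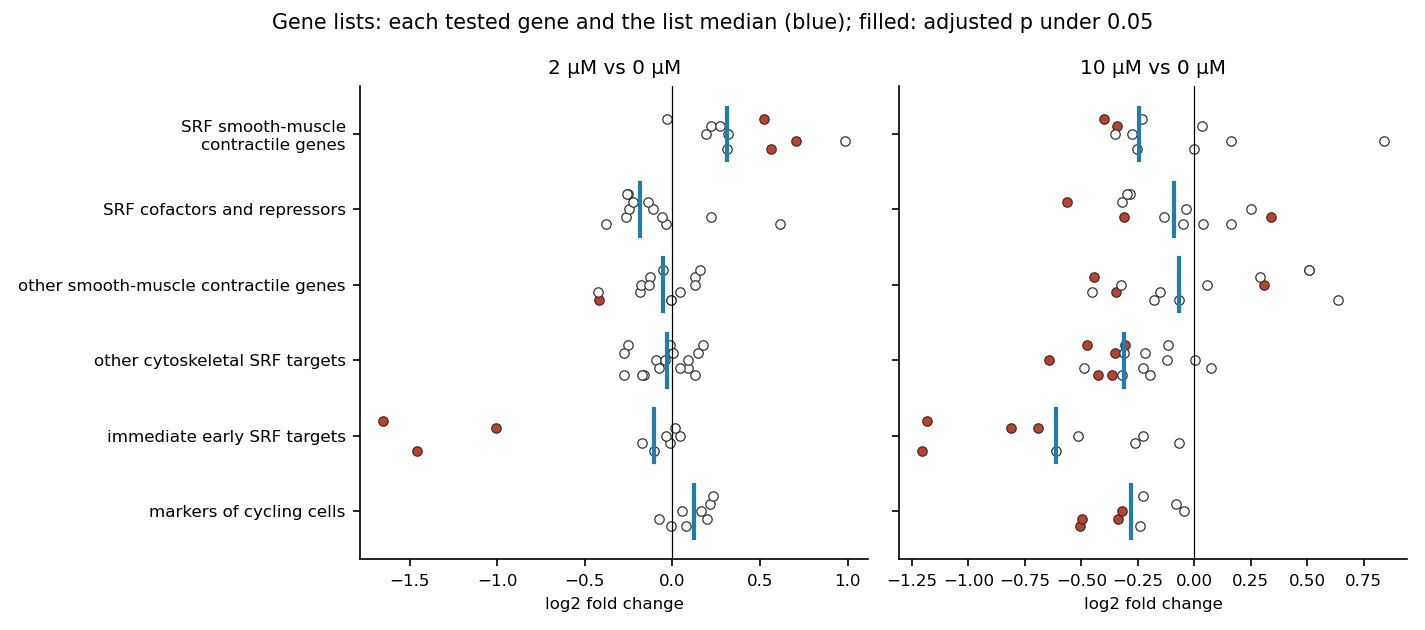
Log2 fold change of each tested gene of 6 lists at 2 µM vs 0 µM and 10 µM vs 0 µM, with the list median as a blue line; filled points have an adjusted p under 0.05. The 10 members have a median of 0.31 at 2 µM and −0.24 at 10 µM, and Fos, Fosb and Nr4a1 are the 3 filled points among the immediate early targets at 2 µM.

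Outside these lists, the 3 tested genes whose level over the 8 libraries lay closest to each of Tagln, Acta2, Srf and Vcl were found by the root mean square difference of their centred log2 CPM. This is a description, since 14296 genes were searched and the points share libraries. Nearest to Tagln was Kcnj2, an inward-rectifier potassium channel (0.0598), with 42.4, 73.5 and 47.8 CPM on average at 0, 2 and 10 µM, followed by Chchd4 (0.102), of the mitochondrial intermembrane import machinery, and Id1 (0.105), an inhibitor of helix-loop-helix factors. Kcnj2 was itself a DEG at 2 µM, with a log2 fold change of 0.80 (adjusted p = 0.00141). Nearest to Acta2 were Nop2 (0.0648), Polr1b (0.0724) and Pwp2 (0.0751), which serve ribosomal RNA synthesis and processing. They had log2 fold changes of 0.47, 0.43 and 0.46 at 2 µM.

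Nearest to Srf were Chpf (0.0717), Akap1 (0.0754) and Bysl (0.0808), each with a positive log2 fold change at 2 µM and a negative one at 10 µM. Near Vcl were Ssr1 (0.0332) and Med15 (0.0399), with log2 fold changes of −0.37 (adjusted p = 0.0125) and −0.38 (adjusted p = 0.00935, edgeR) at 10 µM. When group means replaced the libraries, 1 of the 12 neighbours was found again.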

How the data were processed

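RNA-Seq was performed on 8 MEF libraries, made with a stranded kit from total RNA depleted of nuclear ribosomal RNA. Per the labels and the study's methods, the authors checked reads with FastQC, trimmed them with Trim Galore and cutadapt, aligned them to mm10 with STAR 2.5.2a, and deposited whole-number counts of uniquely mapped fragments per gene from featureCounts, without normalization. The annotation, the featureCounts version and its strand setting are not given in the sources used here. Counting unique fragments loses reads from stretches that genes share.

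Counts were analysed with edgeR 4.0.16 in R 4.3.3 (TMM, filterByExpr, glmQLFit, glmQLFTest, Benjamini-Hochberg adjustment over all 14296 tested genes), with all 8 libraries in one model and the dose as its only factor. The 10 µM group, with 2 libraries, thus shares its estimate of the spread with the others. SE is the log2 fold change divided by the square root of F. The study's limits for a DEG were kept (adjusted p below 0.01, fold above 1.5). Ratios had 0.5 added to each count. Gene positions and exon lengths came from GENCODE M21 (GRCm38) and promoters from RefSeq (GRCm38.p6). The pipeline was tested on simulated data. Python 3.11.15 with numpy, pandas and scipy did the rest. Total counts ran from 10455965 to 26688121 per library.

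The members and gene lists were chosen with earlier results of these data known. Named were all 10 members, every gene of the 5 family lists, of the other lists the DEGs and the 2 genes with the smallest p at each dose against 0 µM, and the nearest-pattern genes. Myocd, Myh11, Lmod1, Des, Mkl1, Mkl2, Itga8, Egr1, Egr2, Egr3, Ier2, Junb, Arc, Cdk1, Top2a, Col3a1, Dcn, Pdgfrb, Postn, Pcsk7 and Ap3m1 were named after their values were seen. So were Lum, Cspg4, Rgs5 and Kcnj8. Marker lists covered fibroblasts, smooth, skeletal and cardiac muscle, pericytes, epithelium, endothelium, immune and cycling cells. Alternatives were RLE and DESeq2 1.42.0, other scalings, filters and thresholds, a fit without the third dose, a block for the replicate number, and leaving out single libraries. Results for 1 gene list and 1 nearest-pattern gene are not reported here.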

Additional observations from a re-analysis of the deposited data

How the results depend on the processing

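Of 462 fold changes of members under the alternatives, 0 turned in direction against a called value and 30 crossed the DEG threshold. The main fit called only Tagln at 2 µM vs 0 µM and Myl9 at 10 µM vs 2 µM, so the first count says little. Values that were not called did change sign. Vcl at 2 µM vs 0 µM ran from −0.08 to 0.05 on the log2 scale. At 10 µM vs 0 µM Acta2 ran from −0.08 to 0.21, Tpm2 from −0.06 to 0.255 and Tagln from −0.00085 to 0.38. At 2 µM vs 0 µM, with 1 DEG among the members, total-count scaling gave 2, leaving out a library 0 to 3, an adjusted p under 0.01 with no minimum fold 2 and an adjusted p under 0.05 alone 3. At 10 µM vs 0 µM, with 0 DEGs, the last 2 rules gave 1 and 2. At 10 µM vs 2 µM, with 1 DEG, no filter on low counts gave 5, DESeq2 4, leaving out a library 1 to 5, and the last 2 rules 5 and 8. The cause was not tested. Group means gave 1 of 12 nearest genes again.

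Replicate numbers are shared by the doses. Same-numbered libraries at 0 and 2 µM had correlations of their deviations of 0.199, 0.0845 and 0.161. Different-numbered libraries at these doses had −0.1535 to 0.0584, below each of those values. Same-numbered pairs with 10 µM had −0.145 and −0.105 for 0 µM, and −0.0212 and −0.0610 for 2 µM. The 2 libraries at 10 µM deviate as mirror images, so these values cannot decide on pairing. The main fit did not take the numbers as pairs, and whether they mark shared batches was not tested. With the replicate number as a block the members had 0 DEGs at 2 µM vs 0 µM, 0 at 10 µM vs 0 µM and 3 at 10 µM vs 2 µM. Total-count scaling moved the median of all genes to 0.07, 0.23 and 0.16 in the 3 comparisons. The DEGs over all genes were then 26 higher and 40 lower, 846 and 68, and 923 and 84, beside 17 and 54, 279 and 163, and 561 and 227 with TMM. DESeq2 gave 18 and 91, 233 and 269, and 463 and 351, and no filter 18 and 81, 275 and 285, and 531 and 363. The 10 µM group had 2 libraries, and Actg2 had 4 to 12 counts, which limits both.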
